A study of Mus musculus with 2 samples.

Results

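Mouse chromosome 12 carries a cluster of serpin genes, and 10 of them were followed here through primary hepatocytes treated with the LXR agonist GW3965. They are the alpha-1 antitrypsin genes Serpina1a to Serpina1e, the pseudogene Gm8893 that lies between them, Serpina3k, Serpina3m and Serpina3n, and Serpina6. They were taken from the deposited gene table by symbol and are 10 of its 36808 genes. The members were selected on their FPKM ratios between the libraries and on their place in the cluster, so the difference between the libraries is described and not tested. RNA was sequenced from liver parenchymal cells isolated from C57Bl6 mice and cultured in William E medium with serum, insulin and dexamethasone, a synthetic glucocorticoid. Both cultures had these additions; the GW3965 culture received 1 µM of the ligand, and the control culture received DMSO, its solvent. Each group had 1 library, so no difference has a replicate check. The second library bears the name GL in the table and was taken to be GW3965, the only partner that the labels name for DMSO.

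Serpins inhibit proteases with an exposed loop, the reactive-centre loop, which the protease takes for a substrate and cuts, whereupon the serpin changes shape and traps it. The residue at the cut site largely decides which protease is caught. Alpha-1 antitrypsin is made mainly by hepatocytes and protects tissue from neutrophil elastase; humans have a single gene for it, while the mouse line has expanded into several copies. The Serpina3 genes are relatives of human antichymotrypsin, also multiplied in rodents, and Serpina6 encodes corticosteroid-binding globulin, which carries glucocorticoids in blood and inhibits no protease.

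The 5 Serpina1 genes are close copies, which bears on every value below. Their GENCODE M21 transcripts were 96.3% to 98.5% identical to each other over the aligned bases, with Serpina1a and Serpina1c the nearest pair (20 differences in 1361 bases). Over the 1239 coding positions that align in all 5 and in Gm8893, 86 differed among the 5, or 6.94%, and the longest stretch identical in all 5 ran for 226 bases. The differences were gathered in places: the 60 bases with the most of them held 18. Those 60 bases cover part of the reactive-centre loop, in the last exon of each gene, and are shown because no other 60 bases hold more of the varying positions, 20.9% of them. Capitals mark the positions that vary among the 5 genes. All lie on the minus strand of chromosome 12 (GRCm38) and are written 5′ to 3′ along the transcript, at chr12:103853757-103853816 for Serpina1a, chr12:103728324-103728383 for Serpina1b, chr12:103895094-103895153 for Serpina1c, chr12:103763762-103763821 for Serpina1d, chr12:103947100-103947159 for Serpina1e and chr12:103817938-103817997 for Gm8893.
Serpina1a: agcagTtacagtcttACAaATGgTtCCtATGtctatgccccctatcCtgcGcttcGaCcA
Serpina1b: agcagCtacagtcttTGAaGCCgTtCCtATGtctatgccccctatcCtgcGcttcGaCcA
Serpina1c: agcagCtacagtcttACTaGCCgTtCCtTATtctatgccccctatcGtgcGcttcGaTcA
Serpina1d: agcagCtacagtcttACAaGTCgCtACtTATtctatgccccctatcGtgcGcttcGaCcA
Serpina1e: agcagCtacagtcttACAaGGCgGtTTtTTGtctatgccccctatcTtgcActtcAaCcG
Gm8893: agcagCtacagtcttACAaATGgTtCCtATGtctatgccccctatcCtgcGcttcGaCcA

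The run of 3 capitals in the middle of each line, followed by tctatg, is the codon at the place of the reactive-site residue. It is ATG in Serpina1a, Serpina1b and Gm8893, TAT in Serpina1c and Serpina1d, and TTG in Serpina1e. In this window Serpina1b differed from Serpina1a at 6 positions, from Serpina1c at 8, from Serpina1d at 9 and from Serpina1e at 11. Gm8893, which GENCODE classes as an unprocessed pseudogene, followed Serpina1a most closely: over 1242 aligned bases the pair differed at 15, against 38 for Gm8893 and Serpina1b.

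How much sequence each gene has to itself was measured as the share of its transcripts' words of a fixed length that occur in no other gene's GENCODE transcripts, on either strand. Of 25-base words, 48.9% of those of Serpina1b were its own, 37.5% of Serpina1e, 32.7% of Serpina1a, 29.8% of Serpina1d, 19.3% of Gm8893 and 11.4% of Serpina1c. Of the words of Serpina1c, 80.6% also occurred in Serpina1a. With 100-base words the share rose to 85.6% for Serpina1e, 85.2% for Serpina1b, 76.0% for Gm8893, 70.7% for Serpina1d, 57.2% for Serpina1a and 30.7% for Serpina1c. The words of all GENCODE transcripts of a gene are pooled here. Serpina1b has 4 transcripts with 2415 exon bases, and Serpina1c has 1 with 1361. Added sequence of this kind can raise the share, so the high share of Serpina1b need not hold for a single transcript of it. The Serpina3 genes were more distinct, at 57.9% for Serpina3m, 71.3% for Serpina3k and 72.4% for Serpina3n with 25-base words, and Serpina6 shared none. Neither the read length nor the way the authors divided reads that match several genes is given in the sources used here. Values of single Serpina1 genes and of Gm8893 are therefore uncertain estimates, and the sum over the family depends less on that division.

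**Figure D1:**
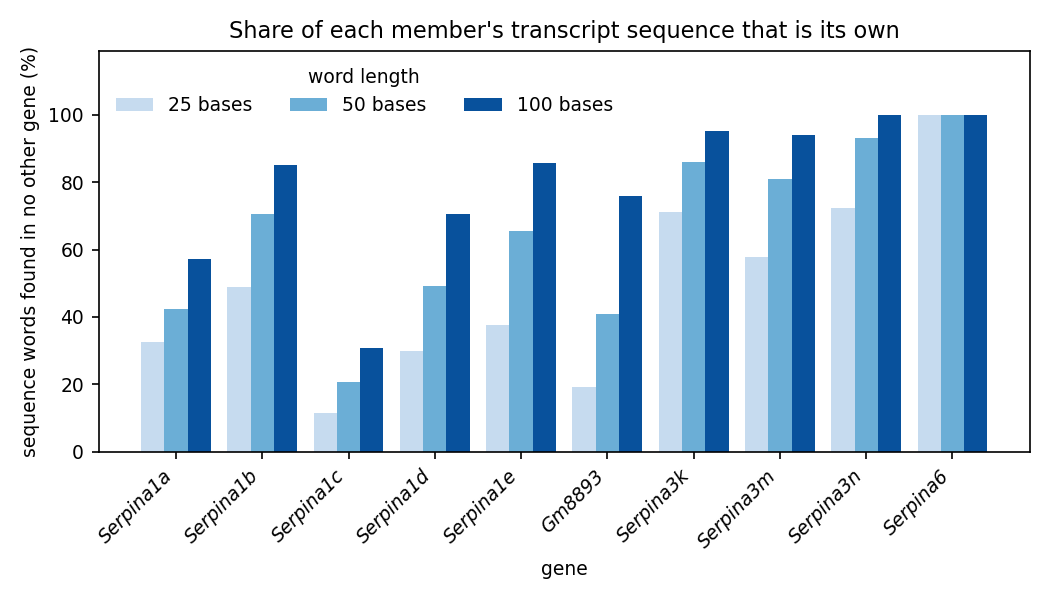
Bars give, for each gene, the percentage of its transcript words of 25, 50 or 100 bases that occur in no other gene (y axis, %). Words are pooled over all GENCODE transcripts of a gene. Serpina1c has the least sequence of its own at every length, from 11.4% at 25 bases to 30.7% at 100, and Serpina6 shares no word.

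Serpina1b was by far the most abundant member. FPKM, in which the authors scaled each gene's fragments to its length and the library, allows levels to be set beside each other. Serpina1b (ENSMUSG00000071178, chromosome 12, 104966366 to 104976368, mm9) stood at 1824 FPKM in DMSO, where it ranked 31 among all genes, and at 1276 in GW3965, where it ranked 50. It made up 76.0% of the FPKM of the 5 genes in DMSO and 71.0% in GW3965. Serpina1d followed at 279 and 298, then Serpina1c at 150 and 114, Serpina1a at 138 and 99.9, and Serpina1e far below at 9.73 and 8.79. The order of the 10 members was the same in both libraries, and Serpina1b stood 187 times above Serpina1e in DMSO. Neighbours in this order can be close: Serpina1c stood 1.09 times above Serpina1a in DMSO and 1.14 times in GW3965, and with 1 library a group no spread is at hand to say whether they differ.

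**Figure D2:**
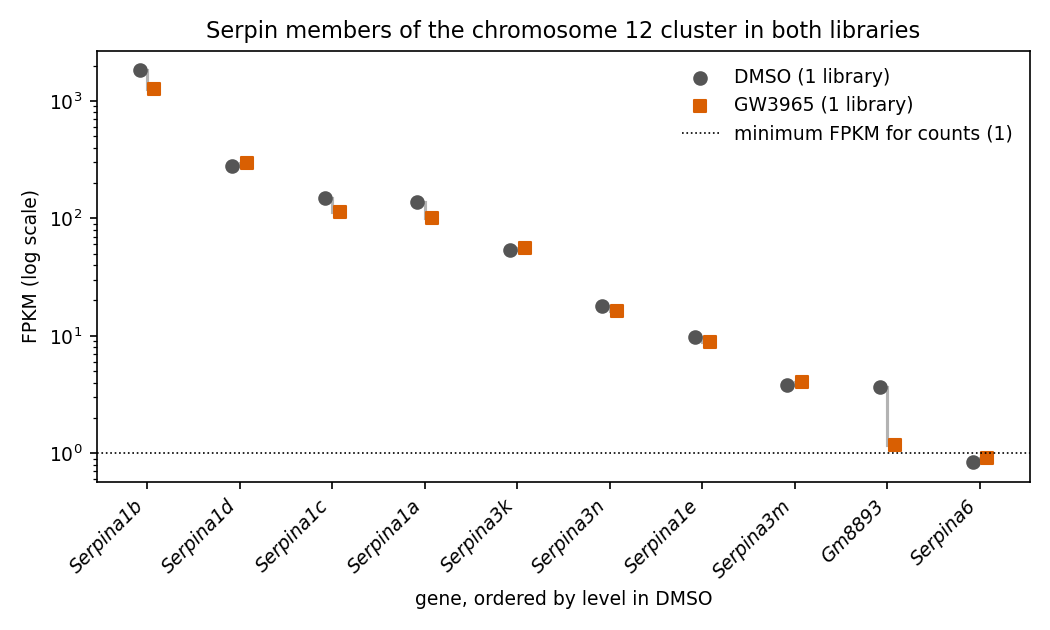
Points show the FPKM of each member (log y axis) in the DMSO library (circles) and the GW3965 library (squares), 1 library each, ordered by the DMSO level. Levels run from 1824 for Serpina1b to 0.840 for Serpina6 in DMSO, and the largest gap between the libraries is that of Gm8893, at 3.70 and 1.18.

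GW3965 was set against DMSO to see how transcripts respond to LXR activation. The alpha-1 antitrypsin genes as a family were lower in the GW3965 library: their FPKM summed to 2400 (DMSO) and 1797 (GW3965), a log2 ratio of -0.42. All ratios put GW3965 over DMSO on the log2(FPKM + 1) scale, which makes differences of low genes look smaller than they are. Counts of genes past 1.5-fold use the same scale. Adding Gm8893 left the ratio of the sum at -0.42. Serpina1b carried most of the drop, since the other 4 genes together had 577 and 520 FPKM, a ratio of -0.15. In such bulk RNA, fewer cells of a type and less RNA per cell cannot be told apart.

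Among the single genes, Serpina1b, Serpina1a and Serpina1c had similar ratios, of -0.51, -0.46 and -0.40, that is, levels 1.43-fold, 1.38-fold and 1.32-fold lower in GW3965. Serpina1e was at -0.13. Serpina1d went the other way by a small amount, at 0.10, and its share of the family's FPKM was 11.6% in DMSO and 16.6% in GW3965. Serpina1d shares the reactive-site codon TAT with Serpina1c but not its ratio. Among the 812 genes of the table that reach an FPKM of 100 in either library, 3.45% had a ratio at or below that of Serpina1c. Serpina1a, Serpina1b and Serpina1c are themselves in that share. The members were selected on their ratios, so their place in this range partly follows from that choice. The median ratio of those 812 genes was 0.03.

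None of these 5 genes reached a 1.5-fold difference, and the authors' deposited table calls none of them. In the authors' deposited table, Cuffdiff's p was 0.0121 and its q 0.837 for Serpina1a. The p in the authors' deposited table was 0.0552 for Serpina1c, 0.0990 for Serpina1b, 0.568 for Serpina1e and 0.622 for Serpina1d, each with a q of 1.00. That test compares the reads of 2 libraries, not the conditions. Standard errors of the log2 fold without the pseudocount, derived from the statistic in the authors' deposited table, were 0.18 for Serpina1a, 0.20 for Serpina1d, 0.21 for Serpina1c, 0.26 for Serpina1e and 0.31 for Serpina1b. Serpina1b thus had the widest error of the 5 although it had the most reads, about 190000 fragments in DMSO and 170000 in GW3965 as estimated from the steps between low FPKM values. Its counting interval alone (exact, 95%) would run from -0.52 to -0.51.

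**Figure D3:**
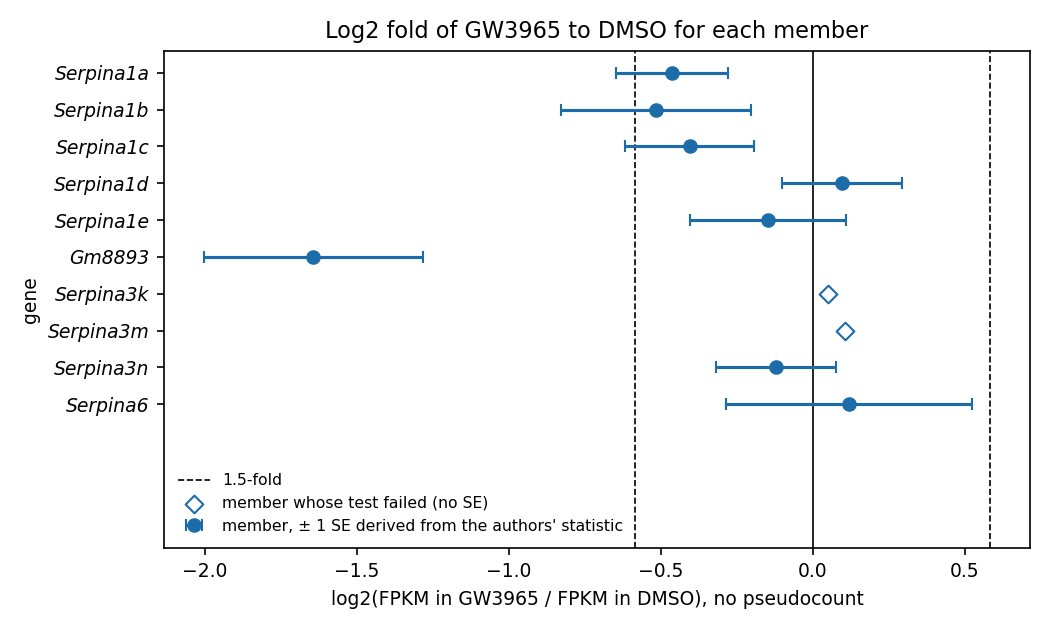
Points give the log2 fold of GW3965 over DMSO without a pseudocount (x axis) for each member, with bars of 1 standard error derived from the authors' test statistic. Open diamonds are Serpina3k and Serpina3m, whose test failed, and dashed lines mark 1.5-fold. Gm8893, at -1.64, lies alone beyond the lower line, and Serpina1d sits to the right of the other Serpina1 genes.

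Gm8893 (ENSMUSG00000090555, chromosome 12, 105056066 to 105060453, mm9) differed most. Its FPKM was 3.70 with DMSO and 1.18 with GW3965, 3.12-fold lower, or a log2 ratio of -1.11 with the pseudocount. It was the only member past 1.5-fold: of the 9 members that reached an FPKM of 1 in either library, 1 was lower and 0 were higher by that much, beside 1.33% of all 11796 such genes that were lower and 1.02% that were higher. In the authors' deposited table Gm8893 is called, with p = 5.22e-06 and q = 0.00342, and 0.119% of the 15090 genes with a completed test were called lower. These values rest on about 270 and 110 fragments, for which counting alone gives a 95% exact interval of the log2 fold of -1.98 to -1.32, while the error derived from the authors' deposited table was 0.36. The pseudogene's level was small beside that of its relatives. Serpina1a, its nearest copy, stood 37.2 times above it in DMSO and 84.4 times in GW3965. Of the 25-base words of Gm8893, 72.3% also occurred in Serpina1a, 64.9% in Serpina1c and 52.1% in Serpina1b, and the part of shared reads in its difference was not tested.

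The Serpina3 genes and Serpina6 showed little difference. Serpina3k, which encodes the kallikrein-binding serpin (chromosome 12, 105576696 to 105632467, mm9), was the highest of them, at 53.7 FPKM (DMSO) and 55.6 (GW3965), a ratio of 0.05. Serpina3m was at 3.79 and 4.08, a ratio of 0.08. The table gives these genes 1 common locus and marks their test as failed, so they have no p-value and no error. In GENCODE M21 both begin at the same base and share 60 exon bases, and 28.6% of the 25-base words of Serpina3m occur in Serpina3k. How reads of the shared sequence were divided between them is not given in the sources used here. Serpina3n, an inhibitor of granzyme B whose level rises in inflammation (chromosome 12, 105644939 to 105652539, mm9), was at 17.8 and 16.4, a ratio of -0.11, with p = 0.540 in the authors' deposited table and a derived error of 0.20. Summed, the Serpina3 members had 75.2 and 76.0 FPKM, a ratio of 0.02, against -0.42 for the Serpina1 sum. Serpina6 stayed under an FPKM of 1 in both libraries, at 0.840 and 0.914, about 80 and 110 fragments, so that a counting interval of its log2 fold runs from -0.30 to 0.57 and a difference within it was not detectable at this depth.

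The cluster spans 798 kb from Serpina10 to Serpina3n and holds 28 genes of the table besides the members. Of these, 11 were listed at 0 in both libraries, 11 lay between 0 and an FPKM of 1, and 6 reached it. Serpina10, which encodes the protein Z-dependent inhibitor of clotting factor Xa and lies at the end of the cluster next to Serpina6, stood at 38.7 and 22.5 FPKM, a ratio of -0.76, and the authors' deposited table calls it with q = 0.0228. Serpina3g stood at -0.48, Serpina12, which encodes vaspin, at -0.29, Serpina11 at -0.25 and the pseudogene Serpina3d-ps at 0.02. The sixth, B430119L08Rik, is annotated antisense to Serpina1c, with 429 exon bases in common, and had 30.4 and 21.4 FPKM, a ratio of -0.49 beside -0.40 for Serpina1c. Whether the reads were counted by strand is not given in the sources used here, so reads in that overlap, 31.5% of the exon bases of Serpina1c and 21.5% of those of B430119L08Rik, cannot be told apart. These 6 genes had a median ratio of -0.39, with 5 below 0 and 1 lower by 1.5-fold on the FPKM + 1 scale. Serpina3g, at 3.11 and 1.94 FPKM, was past 1.5-fold only without the pseudocount. Over all 11796 genes the median was 0.01, 47.1% lay below 0 and 1.33% were lower by 1.5-fold. With the 9 members at the minimum, the 15 genes had a median of -0.29, with 11 below 0 and 2 lower by 1.5-fold. The members were selected on their ratios, so the values over the 15 partly follow from that choice. The ratios did not follow map order, as Serpina1d lies between Serpina1b and Serpina1a.

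**Figure D4:**
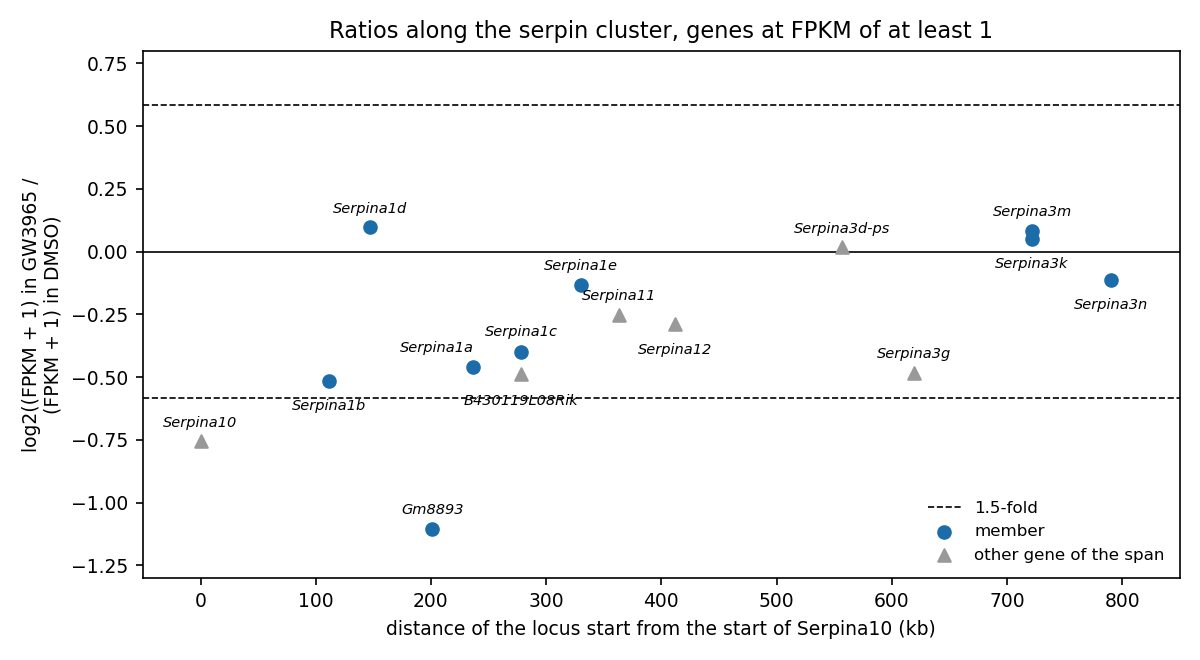
Each point is a gene of the cluster at an FPKM of at least 1, placed by the distance of its locus from the start of Serpina10 (x axis, kb), with its log2 ratio on the y axis. Circles are members, triangles are other genes, and dashed lines mark 1.5-fold. Gm8893 at -1.11 and Serpina10 at -0.76 lie below the lower line, while Serpina1d, Serpina3k and Serpina3m lie above 0.

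RefSeq (GRCm38.p6) gave a promoter, 250 bases before to 50 after the start, for 6 of the 10 members: Serpina1a to Serpina1e and Serpina3n. A stretch of 60 bases, placed on the letters TTGGTTAAT common to the 5 Serpina1 promoters, is shown because it lets the copies be compared at the same place. Those letters hold GTTAAT, an HNF1 half-site, so its presence in all 5 stretches follows from the placement. GTTAAT was not among the motifs searched below, and its share over all promoters was not counted. Capitals mark the 3 positions that vary among them. All are on the minus strand, at chr12:103863608-103863667 for Serpina1a, chr12:103738183-103738242 for Serpina1b, chr12:103904945-103905004 for Serpina1c, chr12:103773617-103773676 for Serpina1d and chr12:103956943-103957002 for Serpina1e.
Serpina1a: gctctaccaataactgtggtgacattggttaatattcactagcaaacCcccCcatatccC
Serpina1b: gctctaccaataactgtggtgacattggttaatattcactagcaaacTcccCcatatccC
Serpina1c: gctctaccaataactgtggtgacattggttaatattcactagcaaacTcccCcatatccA
Serpina1d: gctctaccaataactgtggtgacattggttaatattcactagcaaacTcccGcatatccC
Serpina1e: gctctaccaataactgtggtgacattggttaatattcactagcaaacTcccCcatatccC

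In this stretch Serpina1b and Serpina1e were identical, and Serpina1d differed from Serpina1b at 1 base. The stretch was placed where the copies match, so its likeness does not describe the rest of the promoters. Short sequence motifs were searched on both strands, in these promoters and in all 32851 of the table. The LXR element, a direct repeat of AGGTCA with NNNN between, and a lone AGGTCA were found in none of the 6 promoters. The full repeat is rare in such windows, at 0.0152% of all promoters, and AGGTCA occurred in 16.3%. The STAT letters TTCNNNGAA (8.30% of all promoters) and the HNF4 letters CAAAGTCCA (0.475%) were also in none of the 6. The C/EBP letters TTGCNNAA (10.8% of all promoters) were in those of Serpina1a, Serpina1b, Serpina1d and Serpina1e. TGTTCT, the core of glucocorticoid receptor sites, was in all 6 and in 19.0% of all promoters. The Serpina1 genes are close copies, so the presence or absence of a motif in their promoters is not a set of independent observations. Counts of matches over the 6 promoters therefore cannot be read as enrichment over the shares of all promoters, and enrichment was not tested. Such matches describe letters and not bound sites, and a motif that was not found is only missing from this window.

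Of 18 other serpins of the same clade that were listed, 6 reached the minimum FPKM. These 6 had ratios below 0, beside 47.1% of all genes. Of them, 1 (Serpina10) was lower by 1.5-fold on the FPKM + 1 scale, beside 1.33%. Their median was -0.39 beside 0.01 over all genes, but it was -0.21 with a pseudocount of 5 and -0.07 with no minimum FPKM. Among the listed genes under the minimum, Serpina4-ps1 stood at 0.19, Serpina5 at 0.18 and Serpina3c at 0.12, and Serpina3d-ps, given above, was not on the list. Of these 6, Serpina10, Serpina3g, Serpina11 and Serpina12 are also counted in the span above. Serpina7, the thyroxine-binding globulin gene on the X chromosome, had 422 and 298 FPKM, a ratio of -0.50, and Agt, which encodes angiotensinogen, was at -0.12.

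A list of 14 liver transcription factors, the LXR genes and their partner Rxra among them, all reached the minimum. Their median was -0.15, with 10 below 0, beside 47.1% of all genes, and 1 lower by 1.5-fold, beside 1.33%. The authors' deposited table calls 0 of them, beside 0.119% called lower over all tested genes. Onecut1, a liver homeobox factor, had 1.24 and 0.409 FPKM, a ratio of -0.67. Hnf4a had 49.4 and 37.4 (-0.39), Foxa3 20.8 and 16.0 (-0.36), and Nr1h3, which encodes LXRα, 20.04 and 16.3 (-0.29).

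In people, alpha-1 antitrypsin is among the proteins that the liver makes more of under interleukin 6. Of 25 genes of interleukin 6 and STAT3 signalling, 23 reached the minimum, 19 of them below 0, beside 47.1% of all genes, and 4 above. Of the 23, 2 were lower by 1.5-fold, beside 1.33% of all genes, and the median was -0.07. Fga and Fgg, fibrinogen chains, stood at -0.69 and -0.68, Saa3, a serum amyloid gene, at -0.51 and Hp, which encodes haptoglobin, at -0.42. The signalling genes themselves lay nearer 0, with Il6st at -0.05 and Stat3 at 0.12. Of the 726 genes other than the members that had an FPKM of at least 100 in both libraries, Hp was also the one whose ratio lay nearest to that of the Serpina1 sum, 0.0020 apart. Ifitm3, Steap4, Atp5k and S100a6 followed within 0.043. This likeness rests on 2 libraries, that is, on 1 ratio.

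Serine proteases listed as possible targets of these serpins were scarce or differed by less than 1.5-fold on the FPKM + 1 scale. Of 17 listed, 4 were at 0 in both libraries, among them Elane, the neutrophil elastase gene, and 7 reached the minimum. Of these 7, 6 lay below 0, beside 47.1% of all genes, with a median of -0.18. On that scale none was past 1.5-fold, beside 1.33% of all genes that were lower and 1.02% that were higher. Without the pseudocount Klkb1, at a low level, was lower by more than 1.5-fold. Klkb1, which encodes plasma prekallikrein, was at 1.15 and 0.566 FPKM (-0.46), Prtn3, a neutrophil protease gene, at 1.51 and 1.02 (-0.32), Tmprss6, the protease that acts on hemojuvelin, at -0.19 and F11, clotting factor XI, at -0.18.

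The cultures held hepatocyte transcripts with some of other cells. Of 10 hepatocyte markers, Alb and Trf carry the table's mark for too many fragments and were not used. The other 8 all reached the minimum, with FPKM summing to 10486 (DMSO) and 10027 (GW3965) and a median ratio of 0.01. Their ratios, 4 above 0 and 4 below, ran from -0.39 for Hnf4a to 0.31 for Cps1. The level of Cps1 was low, at 1.497 and 2.10. Macrophage markers reached it in 9 of 10 cases and summed to 212 and 218, with 4 ratios above 0 and a median of -0.06. Stellate cell markers reached it in 7 of 8 cases and summed to 88.8 and 95.1, with 6 ratios above 0 and a median of 0.21. Endothelial markers reached it in 6 of 6 cases and summed to 126 and 151, with all 6 ratios above 0 and a median of 0.28. Cholangiocyte markers reached it in 3 of 5 and summed to 4150 and 3394, nearly all of it Spp1, with 2 ratios above 0 and a median of 0.07. Over all genes, 47.1% of ratios lay below 0. None of these markers was at 0 in either library. Their part in the lower Serpina1 levels was not tested. By the steps between low FPKM values the libraries held about 59600000 (DMSO) and 74000000 (GW3965) fragments.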

How the data were processed

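RNA from 1 DMSO and 1 GW3965 culture was made into TruSeq libraries, per the labels. Per the submitters' processing notes, CASAVA, TopHat2 2.0.6, Cufflinks 2.0.2 and Cuffdiff were used with mm9 and NCBIM37; no settings are given in the sources used here. Per the file headers the deposited unit is FPKM, with a p-value and q-value per gene from the authors' test. The test statistic deposited with them is the authors' score; the log2 fold divided by it, in size, gave the standard errors. Table starts were read as counted from 0.

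The members and lists were chosen with earlier results of these data known. Ratios used a pseudocount of 1. Counts used a minimum FPKM of 1 in either library and a threshold of 1.5-fold on the ratio with the pseudocount. Of the 36808 genes, 7 marked for too many fragments were left out. Named genes were the members, the genes of the span, up to 4 genes per list with the largest ratios in size, and the 5 genes with ratios nearest to the Serpina1 sum; Agt, Stat3, Il6st, Elane and the markers were named after their values were seen. Some genes that this rule covers are not reported here. Of the genes between Serpina10 and Serpina3n, those under the minimum are given as counts.

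Depth was estimated from low FPKM values: the most frequent ratio between the libraries, 1.24, was taken as equal reads, and 84 genes with 1 GENCODE transcript gave the scale. Fragment numbers of members are the FPKM times the longest transcript times that scale. Intervals cover counting error only. Transcripts and exon positions came from GENCODE M21 (GRCm38), promoters from RefSeq (GRCm38.p6), and positions of genes from the table (mm9); the builds were not mixed. Transcripts were aligned with MAFFT 7.526. The count of genes past 1.5-fold was tried on simulated data. Their noise was set by hand and not taken from these libraries, and no planted change was of 1.5-fold. The trial therefore gives no error rate for these data. Scripts ran in Python 3.11.15 with pandas 2.3.3, numpy 2.4.6, matplotlib 3.10.9 and scipy 1.17.1. Alternatives were other pseudocounts, minimum FPKM, scaling, centring, threshold and gene set; without replicates, an alternative value was read against the derived standard error, or against the members' median one where a gene had none.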

Additional observations from a re-analysis of the deposited data

How the results depend on the processing

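All member ratios kept their direction with pseudocounts of 0.1 and 5, after centring and after scaling to the same FPKM sum. Those with a derived standard error moved by less than it, other than Gm8893. Serpina3k and Serpina3m have no such error and ranged from 0.04 to 0.05 and from 0.05 to 0.10, Serpina1b ranged from -0.53 to -0.51, and the Serpina1 sum from -0.43 to -0.42. Gm8893 stood at -1.57 with a pseudocount of 0.1 and at -0.49 with a pseudocount of 5, where 0 members were lower by 1.5-fold, because a pseudocount acts by construction on low values. Over all genes, the counts past the threshold were 194 higher and 320 lower with a pseudocount of 0.1, 56 and 56 with a pseudocount of 5, and 39 and 55 at 2-fold, against 120 and 157; with a minimum FPKM of 5, 82 were lower. The median of the other clade A serpins ranged from -0.41 to -0.07 and that of the proteases from -0.19 to -0.08, both nearest 0 with no minimum FPKM. The median of serpins of other clades changed sign in 1 alternative (range -0.03 to 0.01). No paired analysis was possible because there was 1 library of each kind. Depth limits Serpina6 and Gm8893, and shared sequence limits the single Serpina1 genes.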

Other observations

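Serpins of other clades showed no common direction. Of 22 listed, 13 reached the minimum FPKM, 6 above and 7 below 0, with a median of -0.02. None was past 1.5-fold on the FPKM + 1 scale. Over all genes 47.1% lay below 0, 1.33% were lower by 1.5-fold and 1.02% higher. Serpinf2, which encodes antiplasmin, had 156 FPKM in DMSO and 111 in GW3965, a ratio of -0.49, and Serpind1, heparin cofactor II, had 55.3 and 42.0 (-0.39). Serpinb2 had 3.04 and 4.58 (0.47), which is past 1.5-fold only without the pseudocount. Serpinc1, which encodes antithrombin and was named after its value was seen, had 73.2 and 85.6 (0.22).

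Genes that fold and export secreted serpins lay close to 0. All 21 measured members reached the minimum, with a median of -0.03. None was past 1.5-fold, beside 1.33% of all genes that were lower and 1.02% that were higher. The 4 largest ratios were those of Sar1b (-0.16), Mcfd2 (-0.16), Edem2 (-0.15) and Syvn1 (-0.14). Glucocorticoid response genes, listed because both cultures held dexamethasone, had a median of -0.03 over 15 members. Of these, 0 were past 1.5-fold, beside the same shares of all genes. The metallothionein genes Mt1 and Mt2 stood at 0.41 and 0.31, Zbtb16 at -0.31 and Cebpd at -0.23.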
